A study of Mus musculus with 2 samples.

Results

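Ctla2a and Ctla2b are a pair of neighbouring mouse genes whose transcripts were counted in γδ T cells of the lung. They are 2 of the 32285 genes listed in the deposited matrices, and they were found there by symbol. The pair was selected on measured values. Its levels in these cell states, and above all its ratio between the libraries in cells with IL-17-type markers, were known when it was chosen, so the levels below describe the pair and are not tested. The study asked whether Vγ1 T cells take up IL-17 production when the Vγ4 and Vγ6 subsets are missing. The WT library held Vγ1-negative γδ T cells sorted from lungs of C57BL/6NCrl mice. The library labelled KO held Vγ1-positive γδ T cells sorted from lungs of the strain B6.Cg-Tcrgtm1lku(B6.Vg4-/-Vg6-/-), which lacks the Vγ4 and Vγ6 chains. All mice were uninfected and 5 to 7 weeks old, and each group was 1 library, so genotype, strain, sorted subset and library cannot be told apart in any comparison between them.

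Both proteins resemble the propeptide that keeps cathepsin L-like cysteine proteases inactive until it is removed, and Ctla2a is known to inhibit such proteases. The genes were first isolated from activated T cells and mast cells, and in spite of the name they are not related to the checkpoint receptor CTLA-4. Lung γδ T cells fall broadly into IL-17-type cells, which carry Maf, Il23r and Tmem176b and in the adult lung largely use Vγ6 paired with the Trdv4 chain or Vγ4, and IFNγ-type cells, which carry Cd27, Tbx21, Ccl5 and Ly6c2.

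The genes lie side by side on the minus strand of mouse chromosome 13 (build GRCm38, which matches the mm10 build of the files). Ctla2a (ENSMUSG00000044258) spans 60934155 to 60936625 and Ctla2b (ENSMUSG00000074874) spans 60895350 to 60897447, both annotated as protein-coding, with 36.7 kb between them. The Tcrg-V genes are on the same chromosome, 41.6 Mb away. The 250 bases before each annotated start are shown because the members were detected in the same cells, and the letters of the AP-1, CRE core and NFAT motifs are found in both. The sequences are from RefSeq (GRCm38.p6, minus strand, both symbols matched), at chr13:60936626-60936875 for Ctla2a and chr13:60897448-60897697 for Ctla2b, with the AP-1 and CRE core matches in capitals.
Ctla2a: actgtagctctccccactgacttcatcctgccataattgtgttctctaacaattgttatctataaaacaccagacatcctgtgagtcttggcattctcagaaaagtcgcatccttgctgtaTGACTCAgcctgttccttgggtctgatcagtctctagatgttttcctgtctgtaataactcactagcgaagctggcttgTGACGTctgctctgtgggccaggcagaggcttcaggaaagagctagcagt
Ctla2b: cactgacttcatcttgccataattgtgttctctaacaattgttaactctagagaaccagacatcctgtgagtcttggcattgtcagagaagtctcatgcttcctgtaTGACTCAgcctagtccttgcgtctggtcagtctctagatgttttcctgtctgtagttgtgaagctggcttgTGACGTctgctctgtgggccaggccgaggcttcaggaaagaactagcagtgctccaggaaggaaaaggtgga

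Of 228 bases that align between these windows, 208 are identical (91.2%). On either strand, the AP-1 motif TGANTCA occurred once in each, 129 bases before the start of Ctla2a and 143 before that of Ctla2b, and in 6.75% of 32851 mouse promoters of this length. The CRE core TGACGT occurred once in each, at 50 and 72 bases, and in 6.47% of promoters, and it did not overlap the AP-1 match. The NFAT letters GGAAAA were found in both windows, at 89 bases for Ctla2a and at 103 and 12 bases for Ctla2b, and in 20.4% of promoters. The STAT letters TTCNNNGAA, the GATA letters AGATAA and the TATA letters TATAAA were in the Ctla2a window only, and the ETS letters AGGAAG were in the Ctla2b window only. The letters searched for RUNX, T-box, TCF/LEF, GC box and CCAAT box sites were in neither. These matches are descriptions of the letters, and nothing about binding was measured.

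The transcripts are nearly as alike as the promoters. Ctla2a-201 has 1373 bases and Ctla2b-201 has 842, and 745 of 839 aligned bases are identical (88.8%). In the first 300 bases, 264 of 278 aligned bases are identical. Of all 50-base windows, 7.10% of those in Ctla2a also occur in Ctla2b and 11.9% of those in Ctla2b also occur in Ctla2a. The longest run they share is 91 bases, so reads from a shared stretch could be assigned to either gene or to none, and this applies to every value of either member below. The annotated gene models Gm49391, Gm49392 and Gm49393 overlap the members and are not rows of the files.

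After the study's own filters on genes and mitochondrial transcripts, 2505 of 2520 WT barcodes and 6634 of 6688 barcodes of the library labelled KO remained, with medians of 3288 and 3521 unique molecular identifiers (UMIs, counted transcripts) per cell, and 23 barcodes occurred in both. A UMI of Cd3d, Cd3e, Cd3g or Trdc was present in 90.9% of WT cells and 96.5% of those labelled KO. The deleted chains went only in part with the labels. Tcrg-V6 had 2906 UMIs in WT cells and 0 in KO-labelled cells. Tcrg-V4 had 715 and 1291, or 79.7 and 49.8 CPM (counts scaled to 1000000 UMIs of the library), so the KO-labelled cells had less of it but not none. Such UMIs do not show that an intact Vγ4 chain was made. The study reports neither Tcrg-V4 nor Tcrg-V6 expression in the KO Vγ1 cells of its IL-17-type clusters. The stretch that was deleted is not given in the sources used here. Y-linked transcripts occurred in 24.5% of the cells of WT mice and in 0.467% of the KO-labelled ones, so the libraries also differed in this trace of the sex of the mice.

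Over all cells, Ctla2a had 1182 UMIs in the WT library, or 132 CPM (95% Poisson interval 124 to 139), where CPM is the gene's UMIs over all UMIs of the same cells, scaled to 1000000, and 4829 UMIs in the library labelled KO, or 186 CPM (181 to 192). Intervals throughout cover counting error only, and none covers differences between mice. A Ctla2a UMI was present in 17.9% of the WT cells and 30.4% of the KO-labelled ones, and the highest count in 1 cell was 23 and 37 UMIs. Ctla2b had 225 UMIs or 25.1 CPM in WT cells (21.9 to 28.6) and 782 UMIs or 30.2 CPM in KO-labelled cells (28.1 to 32.4), and it was detected in 7.03% and 9.16% of cells. The ratio of KO-labelled to WT cells was 1.41-fold for Ctla2a (1.33 to 1.51) and 1.20-fold for Ctla2b (1.04 to 1.40), so neither member passed a 2-fold difference in either direction over all cells, where 2.94% of 12275 genes were higher by 2-fold or more and 7.09% were lower.

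The level over all cells combined states in which the libraries stood in opposite order. Cells were divided by whether they had a UMI of Ly6c2, a surface protein of IFNγ-type cells, and of Tmem176b, a membrane protein of IL-17-type cells. These labels were checked against other markers. Among cells with Tmem176b and no Ly6c2, Il23r was detected in 63.1% of those in WT and 49.8% of those labelled KO, and Ccl5 in 4.90% and 10.3%. Il17a was detected there in 33.9% and 9.31%, Blk in 53.6% and 12.9%, and Il1r1 in 45.2% and 27.0%. Maf (46.4% and 42.4%) and Tmem176a (81.8% and 79.3%) differed less. The cells of this state were therefore not alike in all IL-17-type markers. Among cells with Ly6c2 and no Tmem176b, Il23r was detected in 0.495% and 0.691%, and Ccl5 in 92.6% and 82.9%. Cd27 was found in 16.7% of the WT and 45.8% of the KO-labelled Ly6c2- Tmem176b+ cells, so this marker of IFNγ-type cells did not separate the states in the library labelled KO as it did in WT.

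In the Ly6c2- Tmem176b+ state, Ctla2a stood at 29.1 CPM in 1122 WT cells (24.2 to 34.8) and at 297 in 1353 KO-labelled cells (283 to 311). Ctla2b stood at 5.01 (3.1 to 7.66) and 41.0 (36 to 46.4) in the same cells. The KO-labelled cells were higher by a log2 ratio of 3.35 for Ctla2a (3.08 to 3.63) and 3.03 for Ctla2b (2.39 to 3.75), so both members passed 2-fold. Values of this contrast, and of the other states and divisions by these markers, were known when the pair was selected. In this contrast 3.68% of 10087 genes were higher and 3.41% lower by 2-fold or more.

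In the Ly6c2+ Tmem176b- state the order was the other way round. Ctla2a stood at 436 CPM in 404 WT cells (406 to 468) and at 208 in 1448 KO-labelled cells (196 to 220). Ctla2b stood at 82.3 (69.4 to 96.9) and 42.5 (37.4 to 48.1). The log2 ratio of KO-labelled to WT cells was -1.07 for Ctla2a (-1.20 to -0.94) and -0.95 for Ctla2b (-1.25 to -0.65), so Ctla2a passed 2-fold lower and Ctla2b did not, where 3.07% of 9504 genes were lower and 2.62% higher. Ctla2a was only just past 2-fold. Its log2 ratio was -0.99 with detection at 2 UMIs, -0.91 at 2000 UMIs per cell and -0.59 in cells with Xist and no Y-linked UMI, which ends that call and keeps the sign.

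In WT the cells with neither or both markers lay between these ends, and in the library labelled KO the cells with neither marker lay below both. With neither marker, Ctla2a was at 90.4 CPM in 925 WT cells (79.3 to 103) and 121 in 3664 KO-labelled cells (115 to 127), and Ctla2b was at 18.5 and 18.2, with intervals that overlap. With both markers, Ctla2a was at 149 in only 54 WT cells (113 to 192) and 239 in 169 KO-labelled cells (208 to 273), and Ctla2b was at 28.2 (14.1 to 50.4) and 49.1 (35.7 to 65.9). In that small group the log2 ratio of 0.69 for Ctla2a turned to -0.56 when every cell was thinned to 2000 UMIs, with the states read anew from the thinned counts, and these few cells give it no firm direction. Without cells with B cell, myeloid, endothelial or epithelial markers it was 0.45 (-0.0009 to 0.93). The 54 WT cells were deep, with a median of 6476 UMIs, against 4059 in WT Ly6c2+ Tmem176b- and 3495.5 in WT Ly6c2- Tmem176b+ cells. Whether each of them is a single γδ T cell was not tested. The state with the lowest level of both members in WT was the one with the highest level of Ctla2a in the library labelled KO.

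**Figure D1:**
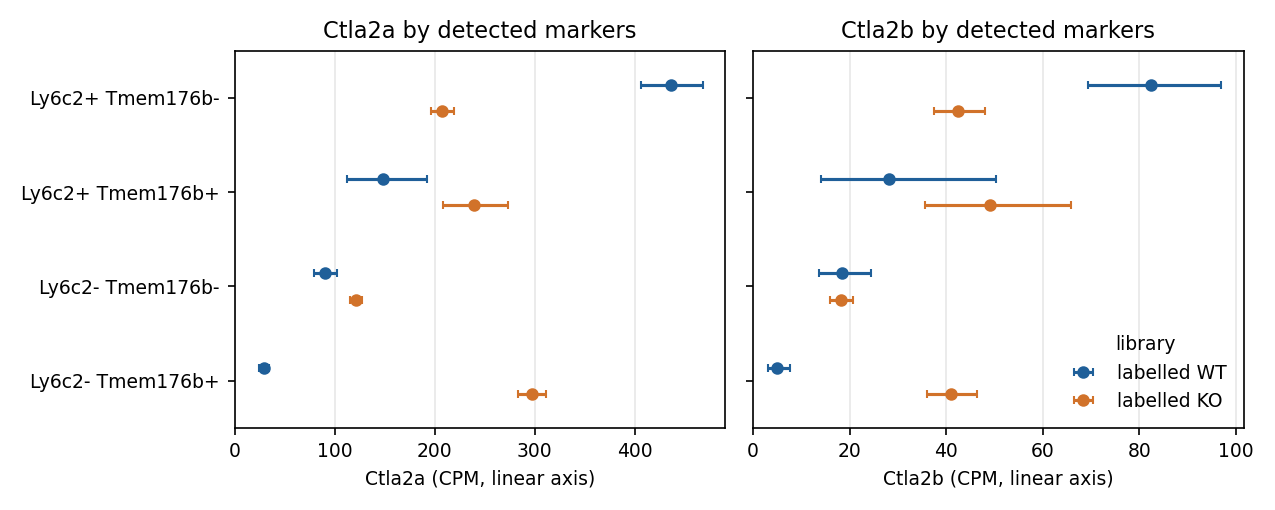
CPM of Ctla2a (left) and Ctla2b (right) on linear axes, for cells divided by detection of Ly6c2 and Tmem176b in the libraries labelled WT (blue) and KO (orange), as points with 95% Poisson intervals. The WT points run from 29.1 to 436 for Ctla2a, while the points labelled KO stay between 121 and 297 and change places with WT between the top and bottom rows.

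Within the WT library the states were far apart. Ctla2a was at 384 CPM in Ly6c2+ cells and 52.8 in Ly6c2- cells, a log2 ratio of 2.86 (2.68 to 3.04), and Ctla2b was at 72.4 and 10.2, a log2 ratio of 2.82 (2.40 to 3.25). Both members were thus higher by 2-fold or more with Ly6c2, as were 3.61% of 10120 genes tested, while 7.95% were lower. By Tmem176b, Ctla2a was at 39.3 in WT cells with a UMI and 228 in those without, a log2 ratio of -2.54 (-2.77 to -2.31), and Ctla2b was at 6.99 and 43.9, a log2 ratio of -2.65 (-3.24 to -2.11). Both were lower by 2-fold or more, as were 8.64% of genes, and 5.43% were higher. The 458 Ly6c2+ cells made up 18.3% of WT cells and held 69.5% of the WT Ctla2a UMIs and 68.9% of the Ctla2b UMIs.

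In the library labelled KO the same divisions gave small differences by Ly6c2 and a difference of the other sign by Tmem176b. Ctla2a was at 212 CPM in Ly6c2+ cells and 177 in Ly6c2- cells, a log2 ratio of 0.26 (0.17 to 0.35). Ctla2b was at 43.4 and 25.4, a log2 ratio of 0.77 (0.56 to 0.98). Neither passed 2-fold, where 1.49% of 11580 genes were higher and 4.59% lower. By Tmem176b, Ctla2a was at 289 and 148, a log2 ratio of 0.96 (0.88 to 1.05), and Ctla2b was at 42.0 and 25.8, a log2 ratio of 0.70 (0.49 to 0.91). Neither passed 2-fold, where 7.08% of genes were higher and 5.57% lower. Ctla2a lay close to that limit and passed it with detection at 2 UMIs (1.05), at 2000 UMIs per cell (1.01), without the deepest 5% of cells (1.05) and as a mean over cells (1.03). The 1522 Tmem176b+ cells were 22.9% of the KO-labelled cells and held 41.8% of the Ctla2a UMIs. Whether the contrasts differ between the libraries could not be tested with 1 library each.

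Depth moved with these divisions. The median was 4214 UMIs per cell in WT Ly6c2+ cells against 3129 in Ly6c2- cells, and 4189 in KO-labelled Tmem176b+ cells against 3330 in Tmem176b- cells. With states kept and each cell thinned to 2000 UMIs (380 cells in WT and 828 in the library labelled KO were too shallow), Ctla2a was detected in 41.9% of WT Ly6c2+ Tmem176b- cells and 3.96% of WT Ly6c2- Tmem176b+ cells. Without thinning these shares were 58.7% and 6.42%. The thinned shares labelled KO were 26.0% and 33.0%, against 36.8% and 46.5% without thinning. The order of these states was therefore kept at equal depth in both libraries. In the library labelled KO, cells with both markers were above the Ly6c2- Tmem176b+ cells without thinning (49.1%) and below them when thinned (30.5%). Sex also moved with the libraries. In the 859 WT and 3220 KO-labelled cells that had Xist and no Y-linked UMI, the Ctla2a log2 ratio by Tmem176b was -1.73 in WT (-2.09 to -1.39) and 0.82 in the library labelled KO (0.71 to 0.93), so the WT ratio was smaller by over 1.5 times and kept its sign.

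The pair followed the number of IL-17-type markers in opposite ways. Of 9 such genes (Il17a, Il23r, Il1r1, Blk, Maf, Sox13, Ccr6, Tmem176a and Tmem176b), 905 WT cells had none, and in these Ctla2a was at 278 CPM (260 to 297). It was at 189 with 1 marker, at 52.5 with 2, and between 24.1 and 51.9 with 3 or more. Labelled KO, it was at 135 in the 4403 cells with no marker (129 to 141), at 211 with 1 marker, between 303 and 321 with 2 to 4, and at 248 with 5 or more (224 to 273). Ctla2b went the same ways, from 52.8 with no marker to 6.01 with 5 or more in WT, and from 24.1 to a highest level of 51.8 with 3 markers in KO-labelled cells. With 1 marker the Ctla2a intervals of the libraries overlapped, and with none or with 2 or more they did not. The median depth was higher in cells with 5 or more markers than in those with none, 3820 against 3183 UMIs in WT and 4896 against 3285 in the library labelled KO.

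**Figure D2:**
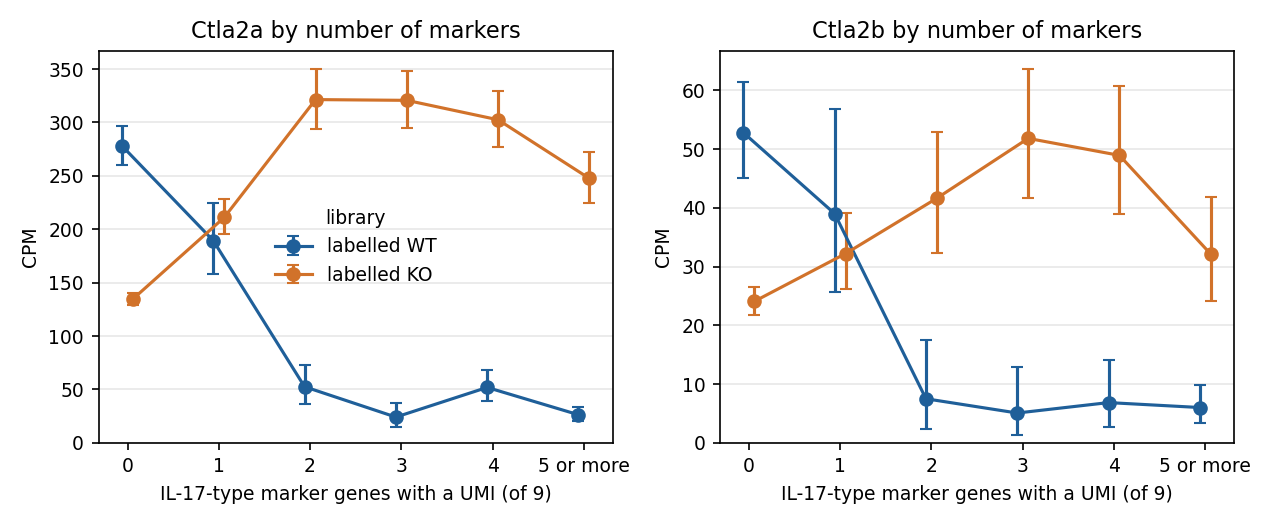
CPM of Ctla2a (left) and Ctla2b (right) against how many of 9 IL-17-type marker genes had a UMI in the cell, with 95% Poisson intervals, for the libraries labelled WT (blue) and KO (orange). With no marker Ctla2a is at 278 in WT and 135 in the library labelled KO, and with 5 or more markers at 26.3 and 248.

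By markers of the IFNγ type, of which 6 were counted (Cd27, Ly6c2, Tbx21, Ifng, Il2rb and Klrd1), both libraries were highest in the cells with the most markers. WT Ctla2a was at 14.5 CPM in cells with none (7.22 to 25.9), at 29.3 with 1, 103 with 2, 221 with 3 and 473 with 4 or more (436 to 512). KO-labelled Ctla2a was at 134, 173, 192, 167 and 247 (231 to 263) over the same groups, so it did not go up at every step. WT Ctla2b ran from 3.94 to 93.5 and KO-labelled Ctla2b from 13 to 50.05. Il2rb, a chain of the IL-2 and IL-15 receptors, did not separate the states, since it was found in 86.5% of WT Ly6c2- Tmem176b+ cells and 85.6% of WT Ly6c2+ Tmem176b- cells, and in 82.3% and 86.1% of those labelled KO. Of the cells with a single marker, 86.9% in WT and 61.1% in the library labelled KO had Il2rb as that marker.

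The γ chain of a cell was read from Tcrg-V UMIs, taking cells with UMIs of exactly 1 such gene. In WT the 520 Tcrg-V6 cells stood apart, with Ctla2a at 23.7 CPM (17.4 to 31.6) and Ctla2b at 3.54 (1.42 to 7.28). The 410 WT Tcrg-V4 cells were at 196 (175 to 219) and 29.7 (21.8 to 39.5). The few WT cells with Tcrg-V7, Tcrg-V5, Tcrg-V3 or Tcrg-V1 alone (13 to 84 cells) were at 105, 115, 156 and 203 for Ctla2a. In this order of WT levels the Tcrg-V6 interval overlapped no other, and all neighbours above it overlapped. Tcrg-V4 cells were higher than Tcrg-V6 cells by a log2 ratio of 3.04 for Ctla2a (2.60 to 3.52) and 3.07 for Ctla2b (1.92 to 4.46). That ratio for Ctla2a was 2.40 at 2000 UMIs per cell and 3.64 without the deepest 5% of cells, shifts of over 1.5 times. The 303 WT cells with several Tcrg-V genes were in none of these groups, with Ctla2a at 64.1 CPM (51.6 to 78.7).

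In the library labelled KO, which had no Tcrg-V6 UMI, the 2128 Tcrg-V1 cells had Ctla2a at 223 CPM (213 to 232) and Ctla2b at 34.7 (31.0 to 38.7). The 364 Tcrg-V4 cells were at 195 (173 to 219) and 28.3 (20.3 to 38.4), and the intervals of these groups overlap. The 82 Tcrg-V3 cells were lowest, at 65.9 (41.3 to 99.8) for Ctla2a with a single Ctla2b UMI. Cells were sorted as Vγ1-positive in the library labelled KO and as Vγ1-negative in WT. A Tcrg-V4 UMI in the former or a Tcrg-V1 UMI in the latter does not show that chain on the surface. These groups therefore need not hold like cells in each library. For Tcrg-V4 and Tcrg-V1, whose UMIs both libraries held, the ratio between the libraries had intervals that include 0. The log2 ratio of KO-labelled to WT cells was -0.01 for Ctla2a (-0.25 to 0.23) and -0.07 for Ctla2b (-0.71 to 0.57) in Tcrg-V4 cells, and 0.13 (-0.22 to 0.51) and -0.18 (-0.98 to 0.74) in Tcrg-V1 cells. Cells with no Tcrg-V UMI made up 43.7% of the WT library and 48.9% of the library labelled KO, with Ctla2a at 190 and 152.

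By δ chain the spread in WT was wider still, among groups of 30 cells or more, and the chain that was lowest in WT was highest in the library labelled KO. In WT, Ctla2a was at 21.8 CPM in 701 Trdv4 cells (16.5 to 28.4), 99.1 in 379 Trdv5 cells (82.7 to 118), 147 in 283 Trdv2-2 cells (124 to 174), 217 in 33 cells with the Trav15-dv6 genes (143 to 315) and 393 in 243 Trav13-4-dv7 cells (354 to 435). Only the neighbours Trdv2-2 and Trav15-dv6 had overlapping intervals in that order. Ctla2b followed the same order, with 3.12, 17.8, 28.4, 40.2 and 76.6. In WT the Trav13-4-dv7 cells exceeded the Trdv4 cells by a log2 ratio of 4.17 for Ctla2a (3.76 to 4.60) and 4.62 for Ctla2b (3.56 to 5.88).

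In the library labelled KO the Trdv4 cells were the highest instead of the lowest, with Ctla2a at 331 CPM in 87 cells (273 to 398) and Ctla2b at 52.7 (31.2 to 83.3). Trdv1 cells were the lowest, at 134 (119 to 150) and 13.7 (9.30 to 19.4), and between them Trav21-dv12, Trav15-dv6, Trdv2-2, Trav13-4-dv7 and Trdv5 cells were at 148, 178, 184, 202 and 206 for Ctla2a, each overlapping its neighbours in this order, with the Trdv4 interval above all of them. The log2 ratio of KO-labelled to WT cells was 3.92 in Trdv4 cells (3.45 to 4.41) and -0.96 in Trav13-4-dv7 cells (-1.22 to -0.71) for Ctla2a, and 4.08 (2.80 to 5.49) and -1.13 (-1.77 to -0.53) for Ctla2b. The Ctla2b value for Trdv4 rests on 8 WT UMIs, and it was 1.86 with detection at 2 UMIs (-3.61 to 4.76) and 2.66 in cells with Xist and no Y-linked UMI (0.79 to 4.66). The δ variable genes are similar to each other in part, and a UMI of 1 of them does not show that the chain was paired with the γ chain detected in the same cell. Many cells were in none of these groups. With no δ UMI (457 WT and 2137 KO-labelled cells) Ctla2a was at 79.6 and 215 CPM, a log2 ratio of 1.43 (1.12 to 1.76). With several δ genes (394 and 1139 cells) it was at 185 and 167, a log2 ratio of -0.15 (-0.32 to 0.03).

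**Figure D3:**
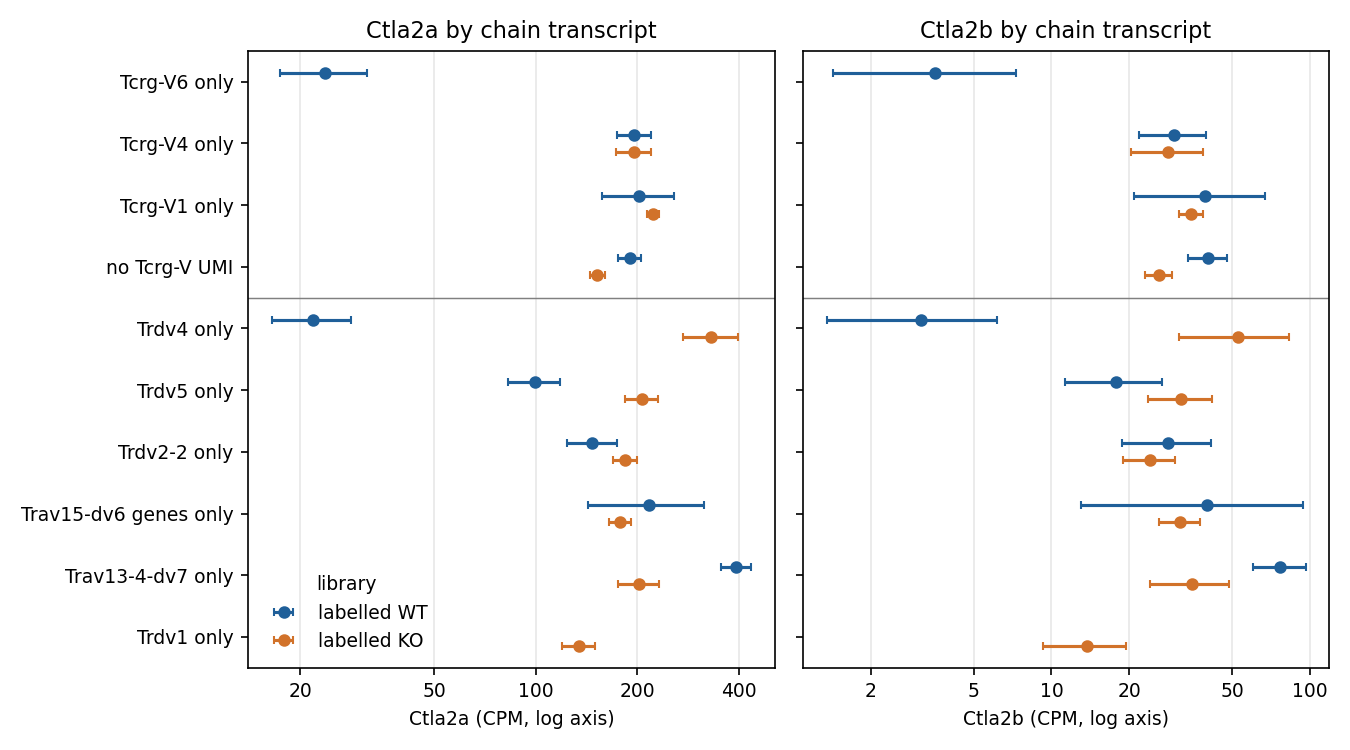
CPM of Ctla2a (left) and Ctla2b (right) on log axes, for cells with UMIs of exactly 1 γ variable gene, of none, or of exactly 1 δ variable gene, with 95% Poisson intervals, in the libraries labelled WT (blue) and KO (orange), groups of 30 cells or more. The WT Tcrg-V6 and Trdv4 points are the farthest left, at 23.7 and 21.8 for Ctla2a, while the Trdv4 point labelled KO is at 331.

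Within 1 state, chains differed less and the gap between the libraries remained. Among Ly6c2- Tmem176b+ cells, WT Ctla2a was at 17.3 CPM with Tcrg-V6 (11.7 to 24.7), 56.8 with Tcrg-V4 (38.9 to 80.2), 19.3 with Trdv4 (14.1 to 25.8), 55.4 with Trdv5 (37.9 to 78.2) and 53.1 with Trdv2-2 (29.0 to 89.2). The KO-labelled cells of that state were at 336 with Tcrg-V1 (314 to 359), 292 with Tcrg-V4 (237 to 357), 358 with Trdv4 (282 to 449), 323 with Trdv5 and 329 with Trdv2-2. Within these cells the log2 ratio of KO-labelled to WT Ctla2a was thus 2.36 for Tcrg-V4 (1.77 to 2.99), 4.22 for Trdv4 (3.66 to 4.78), 2.54 for Trdv5 (1.98 to 3.15) and 2.63 for Trdv2-2 (1.86 to 3.52). The similar levels of cells with Tcrg-V4 UMIs over all states therefore joined a KO-labelled excess in one state to a WT excess in the other.

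Among Ly6c2+ Tmem176b- cells the WT groups of 22 cells or more had intervals that all overlapped. WT Ctla2a was at 521 with Tcrg-V4 (455 to 593), 416 with Tcrg-V1 (301 to 560), 481 with Trav13-4-dv7 (430 to 537), 422 with Trdv5 and 415 with Trdv2-2. The smaller WT groups held few UMIs, with 1 in 6 Tcrg-V6 cells (40.5 CPM, 1.03 to 226), 0 in 1 Trdv4 cell and 11 in 9 cells with the Trav15-dv6 genes (255 CPM, 127 to 456). The KO-labelled groups were at 245 with Tcrg-V4, 226 with Tcrg-V1, 235 with Trav13-4-dv7, 224 with Trdv5 and 228 with Trdv2-2, and lower at 186 with Trdv1 and 150 with the Trav15-dv6 genes (124 to 181). The log2 ratio between the libraries was -1.03 for Trav13-4-dv7 (-1.48 to -0.61), -0.92 for Trdv5 (-1.43 to -0.39) and -0.87 for Trdv2-2 (-1.27 to -0.46). For Ctla2b the same ratios were -0.74, -1.02 and -0.29, with intervals that include 0.

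Ctla2b was found mostly in cells that also had Ctla2a. In WT, 132 cells had UMIs of both, 317 of Ctla2a alone, 44 of Ctla2b alone and 2012 of neither. Ctla2b was found in 29.4% of cells with Ctla2a (25.2% to 33.9%, exact binomial interval) and in 2.14% of the others (1.56% to 2.86%), and 75.0% of Ctla2b cells had Ctla2a. Labelled KO, 407 cells had both, 1608 Ctla2a alone, 201 Ctla2b alone and 4418 neither. The odds ratio was 19.0 in WT (13.1 to 28) and 5.56 in the library labelled KO (4.64 to 6.68). On the log scale of counts per 10000, Pearson's r over cells was 0.453 and Spearman's rho 0.426 in 2505 WT cells, and 0.274 and 0.267 in 6634 KO-labelled cells. Cells of 1 library share their mice, preparation and sequencing run, and deep cells show more of both genes, so these are descriptions.

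Ctla2b detection went up with each step in Ctla2a UMIs. In WT it was 2.14% of cells with 0 Ctla2a UMIs, 18.5% with 1, 33.0% with 2, 37.2% with 3 to 4 and 48.3% with 5 or more (35.0% to 61.8%). The shares labelled KO were 4.35%, 12.6%, 20.5%, 28.8% and 36.9% (30.9% to 43.3%). The WT values lay above the KO-labelled ones at every step with Ctla2a, with overlapping intervals at each. The median depth was 3114 UMIs in WT cells with no Ctla2a UMI and 4344 in those with 5 or more, and 3285 and 4644 in the library labelled KO. At 2000 UMIs per cell the odds ratio was 10.0 in WT (6.47 to 15.6) and 3.95 in the library labelled KO (3.09 to 5.05).

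**Figure D4:**
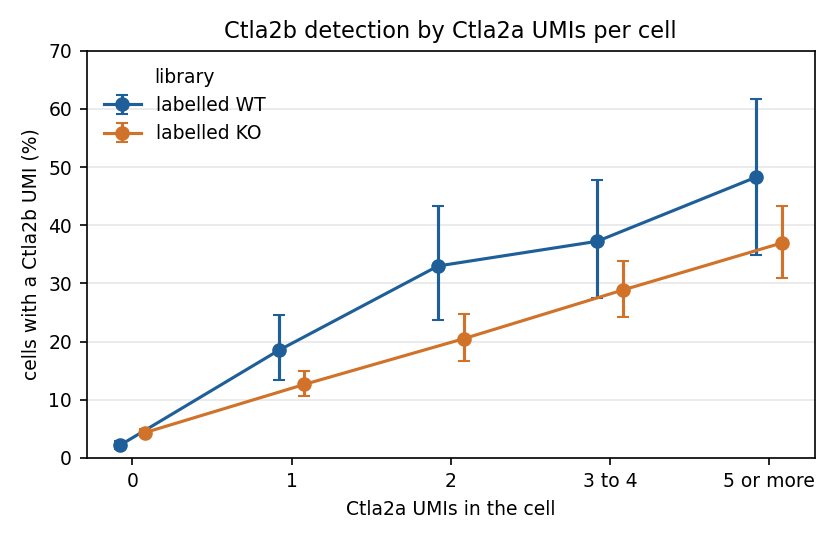
Percent of cells with a Ctla2b UMI against the number of Ctla2a UMIs in the same cell, with exact binomial 95% intervals, for the libraries labelled WT (blue) and KO (orange). Detection goes from 2.14% to 48.3% in WT and from 4.35% to 36.9% in the library labelled KO.

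The members were also detected together within 3 of the 4 states in both libraries. Within WT Ly6c2+ Tmem176b- cells the odds ratio was 5.33 (3.01 to 9.87), within WT cells with neither marker 11.1 (5.44 to 22.9), and within WT Ly6c2- Tmem176b+ cells 31.1 (10.1 to 106), the last from only 11 cells with both members. Within the states labelled KO it was 3.19 (2.32 to 4.41), 5.96 (4.39 to 8.12) and 6.55 (4.38 to 10.0) in the same order. In the small group with both markers it was 3.06 in WT, with an interval from 0.518 to 22.3 that includes 1, and 3.07 in the library labelled KO (1.25 to 8.14). At 2000 UMIs per cell the intervals of these WT and KO-labelled cells with both markers began at 0.579 and 0.905, and the WT Ly6c2- Tmem176b+ value was 7.19 (0.707 to 39.4), while the other values named here kept intervals above 1.

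Other gene pairs put the coupling in scale. Of 8 pairs of related or neighbouring genes, Tmem176a and Tmem176b had odds ratios of 34.3 in WT and 48.2 in the library labelled KO, S100a4 and S100a6 had 33.2 and 17.9, Ms4a4b and Ms4a6b had 6.56 and 6.34, Gzma and Gzmb had 8.98 and 2.41, and Ly6c1 and Ly6c2 had 1.79 and 0.82. The value of the Ctla2 pair thus lay inside the range of such pairs in each library. The pairs differ in level, and an odds ratio depends on it.

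The members kept nearly the same proportion in all states. Ctla2a made up 84.0% of the pair's UMIs in WT (82.0% to 85.9%) and 86.1% in the library labelled KO (85.1% to 87.0%). UMIs count molecules at 1 transcript end and were not scaled by length. In the WT states the share lay between 83.0% and 85.3%, although the level of Ctla2a varied from 29.1 to 436 CPM among them. In the states labelled KO it was 83.0% (81.0% to 84.9%) in Ly6c2+ Tmem176b- cells and 87.9% (86.4% to 89.3%) in Ly6c2- Tmem176b+ cells, intervals that do not overlap. By δ chain, KO-labelled Trdv1 cells had a share of 90.7% (87.1% to 93.6%).

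Divisions of the same cells by other genes also gave opposite orders in the libraries for some of them. For 34 genes of γδ T cell subsets, cells with a UMI of the gene were set against cells without one. The list was chosen with earlier results of these data known and holds Ly6c2, Tmem176b and other markers of the same states. It therefore cannot show that the reversal reaches past those states, and no share over all genes was computed beside its counts. Ctla2a was higher with 13 and lower with 16 of them in WT, and higher with 21 and lower with 9 in the library labelled KO, counting genes whose counting interval leaves out 0. For 11 genes Ctla2a was lower in WT and higher in KO-labelled cells with the gene, and these were Tmem176a, Tmem176b, Il17a, Maf, 5830411N06Rik, Zbtb16, Cd44, Ccr6, Ccr2, Il18r1 and Nr4a1. These orders are by CPM, and for Nr4a1 in WT detection went the other way (18.5% of cells with it, 17.5% without). Blk and Sox13, which were also counted as IL-17-type markers, were not among the 11 genes, with log2 ratios of -2.42 and -2.47 in WT and of -0.14 (-0.35 to 0.08) and 0.06 (-0.21 to 0.32) in the library labelled KO. With the cytokine gene Il17a, for instance, WT Ctla2a was at 34.3 CPM against 157 without it, and KO-labelled Ctla2a at 285 against 184. With Zbtb16, the transcription factor PLZF, WT cells were at 55.0 against 172 and KO-labelled cells at 242 against 146.

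For 5 genes the order was the reverse, higher in WT and lower in KO-labelled cells with the gene, and these were Ccl5, Cd8b1, Klf2, S1pr1 and Ikzf2. For Ccl5 the KO-labelled log2 ratio was only -0.11 (-0.20 to -0.03). Detection went the other way there, with Ctla2a in 33.7% of KO-labelled cells with Ccl5 and 28.2% of those without. Cd8b1, a chain of the CD8 co-receptor, marked WT cells at 217 against 127 and KO-labelled cells at 90.6 against 205. With S1pr1, a receptor by which T cells leave lymphoid tissue, WT cells were at 182 against 90.9 and KO-labelled cells at 165 against 226. For 7 genes Ctla2a was higher with the gene in both libraries, and these were Ly6c2, Eomes, Tbx21, Ifng, Il2rb, Cd27 and Cxcr3. With Eomes, a T-box factor of cytotoxic cells, WT Ctla2a was at 549 against 117 and KO-labelled Ctla2a at 257 against 185. With Ifng it was at 507 against 110 in WT and 278 against 181 in the library labelled KO.

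Ccr9, Cd163l1 and Itgae went with lower Ctla2a in both libraries by CPM. By detection, Ctla2a was in more cells with Ccr9 than without it in WT (22.0% against 17.5%). The same held for Cd163l1 in the library labelled KO (31.7% against 30.2%). The highest Ctla2a of any gene group in the library labelled KO was in cells with the chemokine receptor gene Ccr8, at 403 CPM in 305 cells against 172 without it, a log2 ratio of 1.23 (1.11 to 1.35). Next by ratio was Cd40lg, a helper ligand, at 355 in 506 cells against 169. In WT these genes were found in 39 and 11 cells, with intervals that include 0. For Ctla2b, 7 of the 11 genes and 2 of the 5 genes kept intervals on both opposite sides. The same cells enter all 34 divisions, which are therefore not independent.

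**Figure D5:**
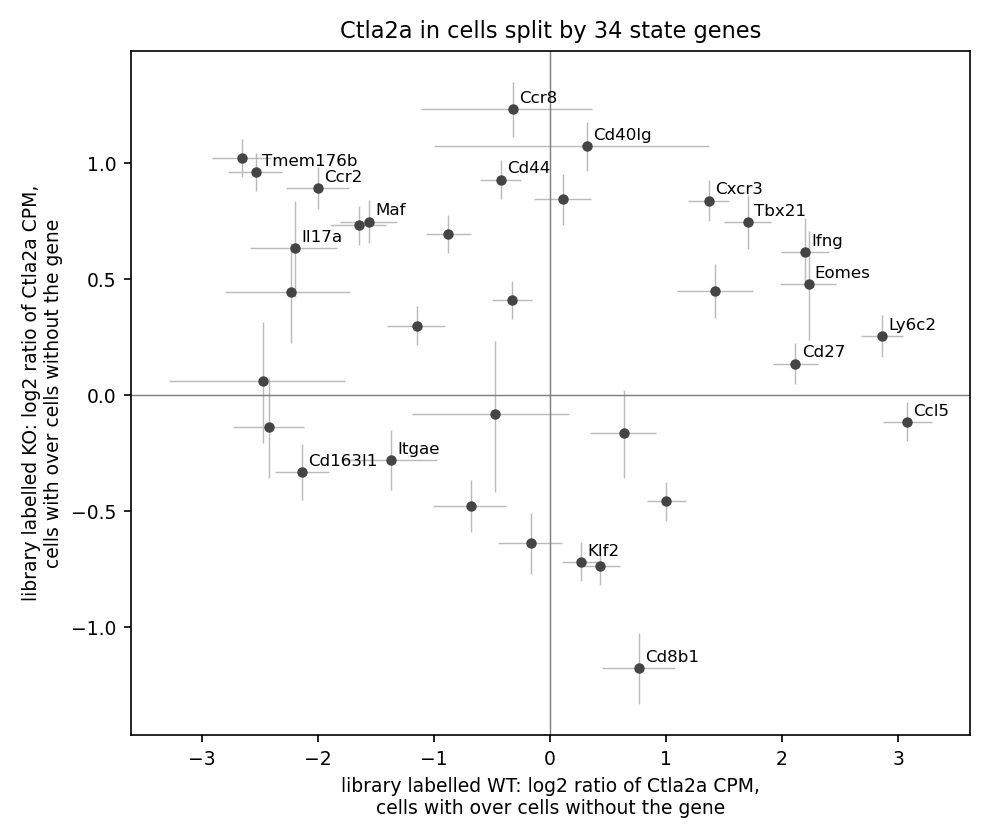
Log2 ratio of Ctla2a CPM between cells with and without each of 34 state genes, in the library labelled WT (horizontal) against the library labelled KO (vertical), with 95% counting intervals and part of the genes named. Tmem176b lies at -2.54 and 0.96 in the upper left, Cd8b1 at 0.77 and -1.18 in the lower right, and Ifng at 2.20 and 0.62 in the upper right.

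The genes most like the members over cells were different ones in each library. Likeness was Pearson's r of log counts per 10000, over 4709 genes in 2505 WT cells and 4942 genes in 6634 KO-labelled cells, leaving out the other member. The r between the members, given above as 0.453 in WT and 0.274 in the library labelled KO, was higher than any listed here for Ctla2b in either library and for Ctla2a in the library labelled KO. In WT, Ctla2a was most like Ccl5 (r of 0.491), Ly6c2 (0.473), Nkg7 (0.395), Klrc1 (0.385) and Trav13-4-dv7 (0.378), and Ctla2b was most like Ccl5 (0.356), Ly6c2 (0.341), Klrc1 (0.288), Ctsw (0.272) and Nkg7 (0.266). Among KO-labelled cells, Ctla2a was most like S100a6 (0.262), Cxcr6 (0.261), Ahnak (0.229), Icos (0.227) and S100a4 (0.227). Ctla2b was there most like Serpinb9 (0.155), S100a6 (0.155), Litaf (0.154), Anxa2 (0.138) and Ahnak (0.136). In WT the r of Ctla2a with S100a6, Cxcr6, Ahnak, Icos and S100a4 was below 0, from -0.225 to -0.068. The r of Ctla2a with Ccl5 and Ly6c2 in the library labelled KO was 0.078 and 0.107. In WT the r of Ctla2b was above 0 with Litaf (0.252), Serpinb9 (0.150) and Anxa2 (0.050). It was below 0 there with S100a6 (-0.149) and Ahnak (-0.050). All values labelled KO are weak, and the points share library and depth.

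Cathepsins, legumain and cystatin inhibitors of cathepsins, 19 genes in all, were looked at because Ctla2a is known to inhibit cathepsin L-like proteases. The list is wider than those proteases, and its other members are not given here as targets of Ctla2a. In WT Ly6c2+ over Ly6c2- cells, 4 of the 15 tested were higher by 2-fold or more (Ctsh, Ctss, Ctsw and Lgmn) and 1 was lower (Cstb), where 3.61% of all genes were higher and 7.95% lower. The list had a median log2 ratio of 0.58 beside -0.09 over all genes. Ctsw, the cathepsin of cytotoxic lymphocytes, was at 413 CPM in these Ly6c2+ cells and 110 in Ly6c2- cells, the same order as both members. Cstb, which encodes the inhibitor stefin B, had the opposite order at 205 and 910. In the 404 WT Ly6c2+ cells without Tmem176b, Lgmn was at 11.4 CPM, Ctss at 94.3 and Ctsh at 18.3. In WT Ly6c2- cells they were at 15.1, 59.4 and 4.83. The 2-fold calls of Lgmn and Ctss therefore rested on the 54 WT cells with both markers, and Ctsh was higher without those cells too. Among WT cells with and without Tmem176b, 1 of 15 was higher (Cstb) and 1 lower (Ctsw), where 5.43% of all genes were higher and 8.64% lower, and the list's median log2 ratio was 0.07.

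In the library labelled KO, 3 of 16 were higher by Tmem176b (Ctsh, Lgmn and Cstb) and none was lower, where 7.08% of all genes were higher and 5.57% lower. Ctsw was at 191 with Tmem176b and 333 without it, the opposite order to both members. By Ly6c2, 1 of 16 was higher (Ctsh) and 1 lower (Cstb), where 1.49% of all genes were higher and 4.59% lower. KO-labelled Ctsh was at 1.51 CPM in Ly6c2+ Tmem176b- cells and 1.48 in Ly6c2- Tmem176b+ cells, with 9 UMIs in each. It was at 1.36 in all Ly6c2- cells and 1.37 in all Tmem176b- cells, so both Ctsh calls rested on the cells with both markers. Ctsw was at 441 with Ly6c2 and 242 without it, the same order as both members. Between the libraries, 2 of 16 were lower in KO-labelled cells over all cells (Ctsh and Cstb), where 7.09% of all genes were lower. In Ly6c2- Tmem176b+ cells 1 of 14 was higher (Ctsw, at 164 against 61.4), where 3.68% of all genes were higher, and in Ly6c2+ Tmem176b- cells 2 of 15 were lower (Ctsh and Lgmn), where 3.07% of all genes were lower. In that last state Ctsw was at 451 in KO-labelled and 457 in WT cells, where both members were lower in the library labelled KO. Ctsl, which encodes cathepsin L, was at 55.7 in KO-labelled and 44.1 in WT cells over all cells, and it passed 2-fold in none of the 7 contrasts. Ctsh, Ctss and Lgmn are also myeloid genes, and 47 WT and 26 KO-labelled cells carried 3 or more myeloid markers, whose part in these ratios was not tested.

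The genes around the pair were mostly silent. Of 27 other listed genes within 1 Mb, 24 had no UMI in either library and 2 had 30 or more. Dapk1, a death-associated kinase, had 67 WT and 272 KO-labelled UMIs, a log2 ratio of 0.49 between the libraries (0.10 to 0.90), and 4930486L24Rik had 32 and 126, a log2 ratio of 0.45 (-0.12 to 1.06). Ctla2a had 0.50 over the same cells.

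Cells of other types did not hold Ctla2a at a level that these counts could show. Among 49 WT and 22 KO-labelled cells with 3 or more B cell or myeloid markers and no T cell marker UMI, 0 had a Ctla2a UMI, which allows a share of up to 6.12% and 13.6%. Their median depths were 2919 and 2715 UMIs. Of Ctla2b, 0 UMIs were found in these WT cells and 1 in the KO-labelled ones. No cell had 3 or more endothelial or epithelial markers. The shares of 5.38% in WT Tcrg-V6 cells and 4.85% in WT Trdv4 cells lie under the limit for WT non-T cells, so these low WT shares cannot be told from free RNA at this number of cells. Leaving out cells with such markers, with or without T cell UMIs, kept all 30 ratios, odds ratios and shares compared within their own counting intervals.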

How the data were processed

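The authors deposited 10x Genomics feature-barcode matrices of UMI counts, 1 per library and not normalized. Their notes name Cell Ranger 7.0 (7.0.0 in the file headers) and mm10. Barcodes with more than 200 and fewer than 4000 genes and under 10% mitochondrial UMIs were kept, as in the study, with no doublet caller. UMIs were summed over the cells of each group and divided by the group's total UMIs, scaled to 1000000 (CPM). Poisson, Clopper-Pearson and conditional intervals at the 95% level were exact. A gene or chain was detected from 1 UMI. Genes were tested with 30 UMIs or more over both groups, and called at a 2-fold ratio. With 1 library per group no test between groups and no p-value was possible. Python 3.11.15, numpy 2.4.6, scipy 1.17.1 and pandas 2.3.3 were used, and scripts were tested on simulated counts. The floor for a count of 0 was 3 counts. Named genes were the members, chain genes, 34 state genes, cathepsins and cystatins, 8 comparison pairs, neighbours with 30 UMIs or more, and the 5 genes with the highest r to each member. Members and lists were chosen with earlier results of these data known. Some listed genes are not reported here. Alternatives were no cell filter, detection at 2 UMIs, thinning to 2000 UMIs, leaving out cells with other markers or the deepest 5%, means over cells, and cells with Xist and no Y-linked UMI. The labels describe 3′ and the study's methods a V(D)J (5′) chemistry, so which end of the transcripts was read is not settled.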

Additional observations from a re-analysis of the deposited data

Results flagged for a closer look

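The contrast by Tmem176b had opposite signs in the libraries for both members. The log2 ratio of cells with over cells without a Tmem176b UMI was -2.54 in WT and 0.96 in the library labelled KO for Ctla2a, and -2.65 and 0.70 for Ctla2b. Levels in these states were known when the pair was selected, so the signs are a description. The difference between the libraries was not tested, since each group was 1 library.

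The barcodes that the study's filter leaves out also held Ctla2a. A UMI was present in 66.7% of the 15 removed WT barcodes and 29.6% of the 54 removed barcodes labelled KO. This says only that the gene was counted in barcodes outside the comparisons, and no background level was measured for them. They were used in no comparison, and keeping them left all 30 values within their intervals.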

How the results depend on the processing

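No paired analysis was possible because neither group had a second library to pair. Of 202 values of 30 results under 7 alternatives, 169 stayed within the main counting interval, 32 left it and 1, whose main interval leaves out 0, changed sign, and the cause was not tested. The sign also changed in 4 values of Ctla2b ratios whose main interval includes 0, and these were -1.18 and -0.23 given below and 0.10 (means over cells) and 0.07 (cells with Xist and no Y-linked UMI) in cells with neither marker, against -0.03. With no cell filter, and without cells of other markers, none of the 30 left its interval. Thinned to 2000 UMIs, Ctla2a between the libraries was -0.56 in Ly6c2+ Tmem176b+ cells (log2, as all ratios here) with Ctla2b at -1.18, -0.91 in Ly6c2+ Tmem176b- cells, 0.44 by Ly6c2 in the library labelled KO, 2.40 for Tcrg-V4 over Tcrg-V6, 0.69 for KO-labelled Tcrg-V1 over WT Tcrg-V4, and the odds ratios were 10.0 and 3.95. With detection at 2 UMIs, Ctla2a was -2.90 and 1.05 by Tmem176b and 3.66 in Ly6c2- Tmem176b+ cells, and Ctla2b 0.96 for Tcrg-V1 over Tcrg-V4 and 1.86 for Trdv4. Without the deepest 5% of cells, Ctla2a was 3.13 by Ly6c2 in WT, -2.82 and 1.05 by Tmem176b, and 3.64 for Tcrg-V4 over Tcrg-V6. As means over cells, Ctla2a was 0.67 over all cells, 3.11 and 0.44 by Ly6c2, and 0.66 in cells with neither marker. In cells with Xist and no Y-linked UMI, Ctla2a was 0.66 over all cells, 2.29 by Ly6c2 in WT, -1.73 and 0.82 by Tmem176b, -0.59 in Ly6c2+ Tmem176b- cells, 2.86 in Ly6c2- Tmem176b+ cells and 2.52 for Tcrg-V4 over Tcrg-V6, and Ctla2b was 2.37 by Ly6c2 and -1.68 by Tmem176b in WT, 2.39 in Ly6c2- Tmem176b+ cells, -0.23 for Tcrg-V1 over Tcrg-V4 and 2.66 for Trdv4. Detection at 2 UMIs gives no value for the results over all cells, and means over cells give no odds ratio. Depth limits Ctla2b most, which had 225 WT UMIs in all.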
